A study of Caenorhabditis elegans with 2 samples.

Results

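In a chromatin immunoprecipitation (ChIP-seq) experiment on the homeobox protein CEH-82 of *Caenorhabditis elegans*, 535 regions, 5.90% of the authors' pooled list, followed directly below the list of thresholded peaks, and they are the members described here. They were chosen by the pooled signal value, a score that the authors' peak caller gave each region: of the pooled regions on build ce11, ranked by that value, as many as the thresholded list holds were taken from directly below its last rank, and 2 that overlapped it were left out. The thresholded peaks were exactly the strongest pooled regions. A further 7990 pooled regions, ranked below the members and free of overlap with that list, are called lower regions. Since the signal value and the replicate reads behind it chose the members, signal, significance and replicate support are given as descriptions with no test.

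The libraries were made from whole worms of strain OP212, genotype unc-119(ed3) III; ddEx58, at the L2 larval stage, pooled from males and females. The strain carries eGFP-tagged ceh-82 on ddEx58, by its name an extrachromosomal transgene array, although the labels call the modification an insertion. Such arrays can be lost from some cells of an animal. There was 1 group with 2 biological replicates, both with the same genotype, and no untagged strain or other stage was analysed here. The libraries were sized to fragments of 150 to 350 bp, and the antibody is labelled only as directed to ceh-82.

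Homeobox proteins bind DNA through a homeodomain, which commonly contacts short sites with a TAAT core. In worm ChIP-seq, sites near the starts of broadly expressed genes are known to appear in the lists of many unrelated factors. Genes for tRNAs are transcribed by RNA polymerase III from a promoter that lies inside the gene and includes a conserved B box, so a summit at a tRNA gene marks a different kind of start from that of a protein-coding gene.

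Members at tRNA genes had their summits close to the gene start. The 5 printed here, chosen after their values were seen, are the strongest with the B box letters given below in the gene and the summit within 60 bp upstream of it. Each sequence runs 5′ to 3′ on the strand of the gene, from 60 bases before the annotated start to the end of the gene, on ce11 (RefSeq genome of WBcel235). Capitals mark the B box, searched as GGTTCGA followed by any pair of bases and CC.
C04A2.t1: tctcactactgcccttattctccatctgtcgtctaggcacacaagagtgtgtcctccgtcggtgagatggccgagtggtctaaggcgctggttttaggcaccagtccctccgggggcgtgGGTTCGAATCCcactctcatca
ZK678.t1: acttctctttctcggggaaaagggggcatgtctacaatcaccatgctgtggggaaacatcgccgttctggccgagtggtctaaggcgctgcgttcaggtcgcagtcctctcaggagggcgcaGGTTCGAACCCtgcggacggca
K08E7.t1: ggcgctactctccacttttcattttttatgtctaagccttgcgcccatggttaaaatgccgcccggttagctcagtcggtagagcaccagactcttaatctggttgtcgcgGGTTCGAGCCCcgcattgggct
C04E7.t1: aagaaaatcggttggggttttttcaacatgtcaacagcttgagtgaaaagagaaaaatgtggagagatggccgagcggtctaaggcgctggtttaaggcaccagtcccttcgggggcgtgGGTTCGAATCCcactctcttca
ZK563.t1: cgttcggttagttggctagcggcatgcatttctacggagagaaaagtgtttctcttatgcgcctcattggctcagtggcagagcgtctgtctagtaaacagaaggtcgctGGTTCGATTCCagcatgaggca
The members at these genes had their summits at -14 bp (C04A2.t1), -36 bp (ZK678.t1), -24 bp (K08E7.t1), -40 bp (C04E7.t1) and -11 bp (ZK563.t1) from the tRNA start, in the printed flank before the gene. The stretches are chrII:6853144-6853285 (plus strand), chrX:15741990-15742133 (plus strand), chrIV:12594680-12594812 (plus strand), chrX:353255-353396 (minus strand), chrX:3371422-3371553 (minus strand), in the order printed.

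In all, 26 members had their summit in the promoter window of a tRNA gene, 1000 bp upstream to 200 bp downstream of its start. Each was assigned to the nearest tRNA start, although a gene of another type can start closer, and they fell at 26 different tRNA genes, among them 3 each for arginine, glycine, leucine and threonine and 1 for selenocysteine. Their median summit position was -22 bp from the tRNA start, against -35.5 bp for 16 thresholded peaks and -27 bp for 123 lower regions at tRNA genes. Within the 100 bp upstream of the start lay 17 of the 26 members (65.4%, exact 95% limits 44.3% to 82.8%), 10 of the 16 thresholded peaks (62.5%) and 40 of the 123 lower regions (32.5%). The share was thus near that of the thresholded peaks and above that of the lower regions, and neither difference was tested. The exact B box letters searched were present in 18 of the 26 genes (69.2%), against 394 of all 612 annotated tRNA genes (64.4%). The letters were thus common at tRNA genes with and without a member. Variants of the B box were not searched, so a gene without these letters may still have one.

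Most of these tRNA genes were on X, where 17 of the 26 members at tRNA genes lay (65.4%), against 13 of 16 thresholded peaks (81.2%) and 51 of 123 lower regions (41.5%). X carries 276 of the 612 annotated tRNA genes (45.1%), and 92 of the 182 with any pooled summit in the window (50.5%). The difference from these shares was not tested. Replicate ranks varied widely within this set. A region counts here as found in a replicate list if that list has a summit within 100 bp. C06G1.t1, a histidine tRNA gene, ranked 283 in the replicate 1 list and 1454 in the replicate 2 list, while C04E7.t1 ranked 10518 and 550. K08E7.t1, a lysine tRNA gene, ranked 386 and 639 and was one of few members near the top of both lists. The selenocysteine tRNA gene K11H12.t1 had a summit at -43 bp with a signal value of 17.3, and it was found in the replicate 2 list at rank 758, whereas the nearest replicate 1 summit lay 175 bp away.

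**Figure D1:**
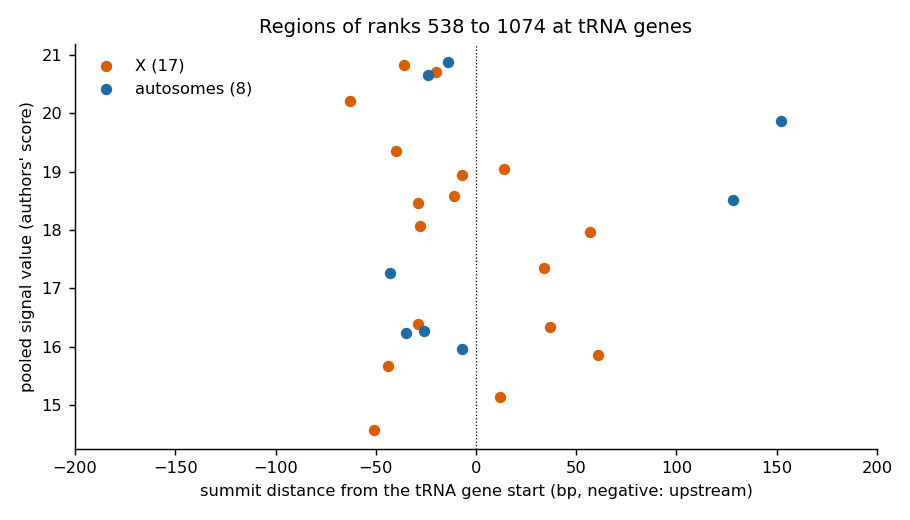
Summit distance from the tRNA gene start in bp (x axis, negative is upstream) against the pooled signal value, the authors' score (y axis), for the members in the promoter window of a tRNA gene, by the nearest tRNA start; each point is 1 region, orange on X and blue on autosomes. Of the 26 members 25 are shown, with 17 within 100 bp upstream of the start, and the member at -939 bp from C47E8.t1 lies outside the axis.

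Repeats of GA were present in some members, as in some thresholded peaks. The windows printed here, chosen after their values were seen, are among the strongest members at protein-coding promoters with a match near the summit and no overlap with a UTR. Each sequence covers the summit and 60 bases on either side on the plus strand of ce11, and capitals mark a match to GAGAGAGA or its reverse complement, the letters searched on both strands.
unc-76(-290): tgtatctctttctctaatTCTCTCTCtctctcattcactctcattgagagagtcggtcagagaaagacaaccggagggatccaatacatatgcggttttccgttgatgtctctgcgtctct
C33C12.1(-574): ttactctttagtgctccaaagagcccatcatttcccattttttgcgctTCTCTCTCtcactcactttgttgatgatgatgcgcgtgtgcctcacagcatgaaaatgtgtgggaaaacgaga
Y53G8AM.8(-711): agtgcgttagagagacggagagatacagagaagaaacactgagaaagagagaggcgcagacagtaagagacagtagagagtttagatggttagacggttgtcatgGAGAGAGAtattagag
eat-6(-707): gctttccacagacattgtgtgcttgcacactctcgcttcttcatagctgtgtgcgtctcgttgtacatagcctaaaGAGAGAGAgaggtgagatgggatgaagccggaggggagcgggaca
The numbers after the gene names give the summit position in bp from the gene start. The windows are chrV:15071410-15071530, chrII:2197604-2197724, chrIII:3279361-3279481, chrV:13130642-13130762, in the order printed. unc-76 is needed for axon outgrowth and eat-6 encodes an alpha subunit of the Na+/K+ ATPase.

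In windows of 100 bp on either side of the summit, the GAGA repeat was present in 65 of the 535 members (12.1%, exact 95% limits 9.50% to 15.2%), 14.2% of the thresholded peaks, 3.42% of the lower regions and 2.73% of equally long windows that end at the starts of 19973 protein-coding genes. It was not confined to promoters. Among the members, 16 of 67 intergenic regions held it (23.9%), against 39 of 370 promoter regions (10.5%), 8 of 65 intron regions (12.3%) and 2 of 33 exon regions. An E2F-type core, any of TTTCGCGC, TTTGGCGC, TTTCCCGC and TTTGCCGC, was present in 7.85% of members, 7.64% of thresholded peaks, 3.54% of lower regions and 3.33% of coding starts. For GGGCGG, the core bound by SP and KLF factors, the shares were 10.1%, 10.99%, 5.38% and 5.97% in the same order.

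Most AT-rich letters were less common in members than in lower regions. The homeodomain core TAATTA was present in 30 members (5.61%), 31 thresholded peaks (5.77%) and 642 lower regions (8.04%), and in 11.9% of coding starts. TAATTG was present in 47 members (8.79%), 34 thresholded peaks (6.33%) and 1119 lower regions, and in 17.4% of coding starts. TAATCC was present in 16 members (2.99%), 10 thresholded peaks (1.86%) and 544 lower regions (6.81%), and in 6.46% of coding starts. Of these 3 cores, TAATTA depended on the window: reaching 200 bp to either side, it was in 16.8% of members, 14.9% of thresholded peaks and 16.7% of lower regions. GATAA, the core bound by GATA factors, was in 22.8% of members and 25.7% of thresholded peaks, against 36.5% of lower regions and 45.6% of coding starts, and TATAAA was in 13.6% of members, 9.12% of thresholded peaks and 18.7% of lower regions. Base composition moved with these shares: mean GC content was 45.2% ± 7.03 in members, 46.7% ± 6.93 in thresholded peaks and 37.9% ± 7.10 in lower regions (SD over the regions of each set), and it was 33.6% at coding starts. Its part in the motif shares was not tested, and a match is only a match of letters. The letters CAGCTG, an E-box, were in 5.79% of members, 7.82% of thresholded peaks and 4.18% of lower regions, but within 50 bp of the summit in 2.24% of members, 4.84% of thresholded peaks and 2.30% of lower regions. ATCGAT, a site of cut-type factors, was in 11.8% of members, 11.2% of thresholded peaks and 7.48% of lower regions.

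By the rule, the members' signal values, 14.5 to 21.02 (median 17.01), lay between those of the thresholded peaks (21.1 to 211, median 28.2) and the lower regions (7.40 to 14.5, median 8.71). At the upper edge, the last thresholded peak was the promoter region of F33H2.3 with 21.0527, and the first member was IV:14838249-14838512 with 21.0248, in the window of the piRNA gene 21ur-10291. The next members had 20.9864 (F13G3.10, rank 539), 20.9023 (wee-1.3, rank 540), 20.8956 (F13A7.14, rank 541) and 20.8812 (Y119D3B.12, rank 542). Steps both larger and smaller than the one across the threshold thus followed it. At the lower edge, the promoter region of dli-1, a dynein light intermediate chain gene, had 14.5166 as the last member, and an intron region nearest to clec-80 had 14.5126 as the first region below. All 535 members had a q-value under 0.05, from 0.00235 to 0.0499 as the authors' caller gave it. Only 6 of the 7990 lower regions did, so the 1080 pooled regions under that q-value (11.9% of the list) were almost exactly the thresholded peaks and the members together. The thresholded peaks had q-values of 0.00117 to 0.00349. That range overlaps the members' range, so the q-value did not separate these sets.

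Promoters of named genes made up most of the members. A summit in a promoter window, 1000 bp upstream to 200 bp downstream of an annotated gene start, was found for 370 of 535 members (69.2%, exact 95% limits 65.1% to 73.1%), 418 thresholded peaks (77.8%) and 3274 of 7990 lower regions (41.0%). The odds for members were 0.639 times those for thresholded peaks (95% limits 0.480 to 0.847, adjusted p = 0.00288) and 3.23 times those for lower regions (2.67 to 3.93, adjusted p = 3.24e-36), in two-sided exact tests after Fisher, adjusted by Benjamini-Hochberg over the 6 location tests. Against the next step of ranks alone, as many as the thresholded list holds, the odds ratio was 1.60 (1.24 to 2.08, adjusted p = 0.000853, exact test). These tests take regions as units, so their p-values do not measure the spread between cultures. In the replicate 1 list ranked by itself, regions of the same ranks were less often at promoters than in the pooled list (48.2%, against 67.8% for its stronger and 40.1% for its weaker regions), and the odds ratio against weaker regions was 1.39. In the replicate 2 list the share was 69.3% and that odds ratio 3.30. In the stronger 269 of the members, the difference from the thresholded peaks no longer passed Fisher's exact test (odds ratio 0.737, adjusted p = 0.121).

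Protein-coding genes accounted for a smaller part of these promoters than in the thresholded list. The window of a protein-coding gene held 258 members (48.2%), 347 thresholded peaks (64.6%) and 2065 lower regions (25.8%). Counted for protein-coding genes only, a definition added after the data were seen, the odds ratio was 0.510 against thresholded peaks (0.396 to 0.657, adjusted p = 2.35e-07, Fisher's exact test) and 2.67 against lower regions (2.23 to 3.20, adjusted p = 6.99e-26). Windows of noncoding genes alone held 112 members (20.9%), 71 thresholded peaks (13.2%) and 1209 lower regions (15.1%). Of those 112 members, 81 had a gene of the annotation's general ncRNA class in the window, 20 a tRNA gene, 19 a small nucleolar RNA (snoRNA) gene, 13 a piRNA gene and 6 a microRNA gene, and a region could have several. The mix was close to that of the thresholded list. General ncRNA genes were in 72.3% of these members, 70.4% of such thresholded peaks and 62.3% of such lower regions. In the same order, the shares were 17.9%, 19.7% and 8.11% for tRNA genes and 16.96%, 16.9% and 4.30% for snoRNA genes. For piRNA genes they were 11.6%, 7.04% and 24.3%. None of these differences was tested. Outside promoters lay 65 members in introns (12.1%), 67 between genes (12.5%) and 33 in exons (6.17%). Exons held 2.42% of thresholded peaks and 21.3% of lower regions.

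Summits in coding promoters lay just upstream of the gene start. The median position was -208.5 bp for members, -192 bp for thresholded peaks and -254 bp for lower regions. Upstream of the start lay 241 of 258 members (93.4%), 95.1% of thresholded peaks and 83.8% of lower regions, and 55.8%, 63.7% and 38.4% lay within the nearest 300 bp. The window reaches 1000 bp upstream but only 200 bp downstream, so a large upstream share follows in part from its shape. The bin of 100 to 200 bp upstream held 60 members (23.3%), 106 thresholded peaks (30.5%) and 294 lower regions (14.2%).

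**Figure D2:**
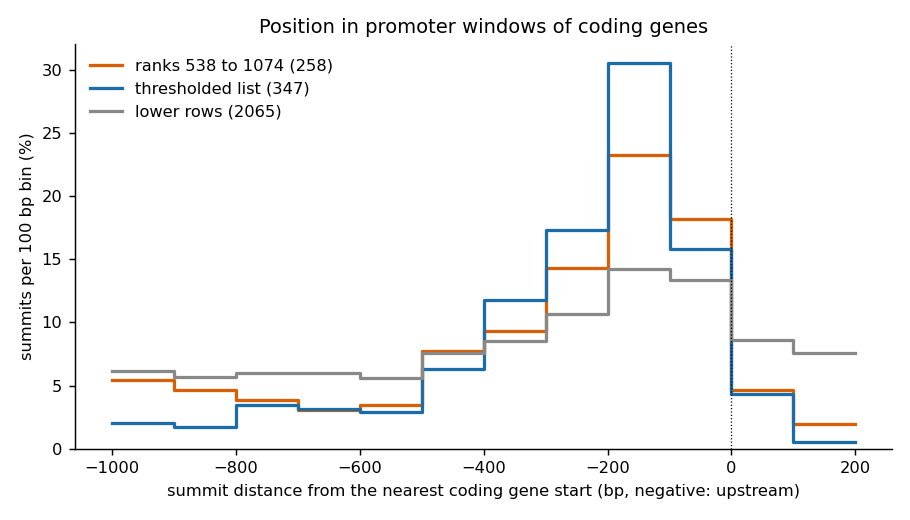
Summit distance from the nearest protein-coding gene start in bp (x axis, negative is upstream) as the percent of each set's coding promoter summits per 100 bp bin (y axis), for 258 members in orange, 347 thresholded peaks in blue and 2065 lower regions in grey. The bin of 100 to 200 bp upstream is the highest for each set, with 23.3%, 30.5% and 14.2%.

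Divergent promoters, where genes on both strands start within the window of the same summit, were less common among members than among thresholded peaks. Of the coding promoter summits, 54 of 258 members (20.9%) were divergent, against 142 of 347 thresholded peaks (40.9%), with an odds ratio of 0.383 (95% limits 0.259 to 0.560, adjusted p = 5.65e-07, Fisher's exact test). Among lower regions 302 of 2065 were divergent (14.6%), with an odds ratio of 1.54 for members (1.10 to 2.15, adjusted p = 0.0152, Fisher's exact test). That call was lost in exact tests of the stronger 269 members (1.64, adjusted p = 0.0523), of the weaker 266 (1.44, adjusted p = 0.175) and of members found in both replicate lists, a set added after the data were seen (1.40, adjusted p = 0.114). Against the next step of ranks below the members, as long as the thresholded list, in place of all lower regions the direction turned, with an odds ratio of 0.800 (adjusted p = 0.434, exact test), and in the replicate 1 list alone the difference from the strongest regions did not pass (0.632, adjusted p = 0.0511). Divergent members included the pair eef-1B.1 and aco-2, a translation elongation factor subunit and mitochondrial aconitase, with the summit at -28 bp from the start of eef-1B.1. They also included jmjd-4 and mev-1, a JmjC domain gene and the succinate dehydrogenase cytochrome b subunit gene, with the summit at -112 bp from jmjd-4 and -147 bp from mev-1.

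On X lay 115 members (21.5%), 116 thresholded peaks (21.6%) and 1566 lower regions (19.6%). Neither difference passed Fisher's exact test: the odds ratio was 0.994 against thresholded peaks (95% limits 0.735 to 1.34, adjusted p = 1) and 1.12 against lower regions (0.899 to 1.39, adjusted p = 0.344). In the replicate 1 list alone the share on X was 16.4% at these ranks, against 24.95% for its stronger regions (odds ratio 0.592, adjusted p = 0.00102, Fisher's exact test). Members on X were at coding promoters in 37.4% of cases, against 51.2% for members on autosomes. This gap was not particular to members: the shares were 48.3% and 69.1% for thresholded peaks, and 19.6% and 27.4% for lower regions. Of members in the windows of noncoding genes alone 34.8% were on X, as were 31.3% of intergenic members and 16.7% of those at coding promoters.

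**Figure D3:**
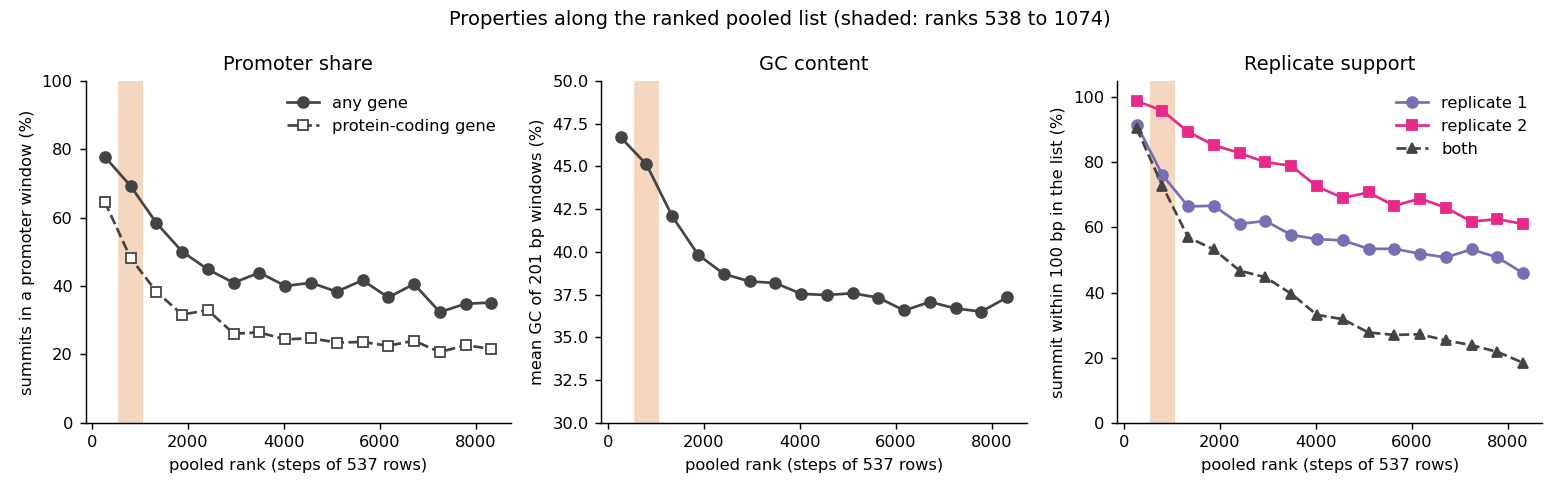
Share of summits in a promoter window, mean GC content of the window of 100 bp on either side of the summit, and share of regions with a summit within 100 bp in the replicate lists (y axes, in percent) along the pooled rank (x axis, in steps as long as the thresholded list); the shaded step holds the members. The promoter share was 77.8%, 69.3%, 58.5% and 50.1% over the first 4 steps, and support in both replicates was 90.5%, 72.8%, 57.0% and 53.3%.

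Within the members these properties graded with rank. The stronger 269 were at promoters in 72.1% of cases and had a mean GC content of 46.0%, against 66.2% and 44.3% for the weaker 266. In steps of equal length along the whole list, the promoter share was 69.3% in the members' step, including the 2 overlapping regions, between 77.8% above and 58.5% below, and it was 35.2% at ranks 8056 to 8592. Mean GC content was 46.7%, 45.1%, 42.1% and 39.8% over the first 4 steps, and the share in exons was 2.42%, 6.15%, 11.5% and 16.2%. Members were mostly far from thresholded peaks: the median distance to the nearest was 52174 bp, against 67222 bp for lower regions. A thresholded peak lay within 1000 bp of 13 members (2.43%) and of 102 lower regions (1.28%), and overlapping regions had been left out of both sets.

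The strongest 20 members lay at genes of mixed function. After the first, at a piRNA gene, came F13G3.10 with mif-3, whose product resembles macrophage migration inhibitory factor (signal value 20.99), and wee-1.3, an inhibitory kinase of the cell cycle regulator CDK-1 (20.9). Next were F13A7.14 (20.9) and the divergent pair Y119D3B.12 and mrpl-45, a mitochondrial ribosomal protein gene (20.9). sco-1, a cytochrome c oxidase assembly gene, had 20.9 with the summit at -213 bp, and ugt-50, a UDP-glucuronosyltransferase gene, had 20.8 at -990 bp. nhr-255, a nuclear hormone receptor gene, shared its region with the tRNA gene ZK678.t1 (20.8).

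Others among the strongest 20 were snpc-3.4, which encodes a subunit of the complex that activates small nuclear RNA genes (20.8, summit at -20 bp), and pak-2, a p21-activated kinase gene (20.8, -404 bp). par-5, a 14-3-3 protein gene, and M117.3 on the other strand had 20.6, with the summit at -139 and -143 bp. A region in an exon of gldi-8 (20.7), with the nearest replicate 1 summit 153 bp away, and intergenic regions near F52G3.1 on X (20.8) and near nhr-258 (20.7) were the 3 outside promoters. The snoRNA gene Y75B12B.12 with Y75B12B.11 (20.8), unc-76 (20.7), the pair eef-1B.1 and aco-2 (20.8) and the tRNA genes C04A2.t1, R01H5.t1 and K08E7.t1 completed the set. So 17 of the 20 were in a promoter window, and 4 of these were at tRNA genes.

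In all, 591 genes had a member in the window, 9.45% of the 6257 genes with any pooled summit there, and 316 of them were protein-coding. Thresholded peaks were in the windows of 781 of the same genes, 12.5%. Since regions that overlap a thresholded peak were left out, the rule itself lowers the number of genes with both. That number was 11 genes, 1.86% of the genes with a member and 1.41% of those with a thresholded peak. Among them were cox-5B, a cytochrome c oxidase subunit gene, grk-1, a G protein-coupled receptor kinase gene, and the microRNA gene cel-mir-52. A window is counted for every gene it belongs to, and 158 members had more than 1 gene. Of genes with no thresholded peak, 580 of 5476 had a member (10.6%), and that share is the background for the counts of remaining genes below. Counts for gene lists are of the genes with a pooled summit in the window. Membership in any of 28 gene lists by name or type was 21.2% among genes with a member (125 of 591) and 31.6% among those with a thresholded peak (247 of 781). The share over all 6257 genes with a pooled summit was not counted for the lists together. These shares therefore do not tell whether genes with a member are rich or poor in listed genes. The lists were chosen with earlier results of these data known.

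Of the cytosolic ribosomal protein genes with a pooled summit, 7 of 63 had a member (11.1%, against 9.45% of all genes with a pooled summit) and 40 a thresholded peak (63.5%, against 12.5%). Over all 83 genes of the list, with or without a pooled summit, these were 8.43% and 48.2%, against 1.58% and 2.54% of all protein-coding genes. Of the 23 with no thresholded peak, 7 had a member (30.4%, against the 10.6%). They included rpl-2 (signal value 19.6, summit at -420 bp), rpl-32 (19.5, -390 bp), rpl-13 (18.7, -249 bp) and rps-4 (18.005, -313 bp), all components of the ribosome. In the replicate 2 list these 4 ranked 886, 887, 1544 and 737, whereas in the replicate 1 list rpl-2 was not found within 100 bp (nearest summit 189 bp away) and the others ranked 1724, 19648 and 7635. Translation factor genes had a member in 2 of 21 cases and a thresholded peak in 9. The 2 were eef-1B.1 (20.8, summit at -28 bp) and eif-3.J (19.7, -916 bp), a subunit gene of initiation factor 3. The nearest replicate 1 summits lay 264 bp and 210 bp away, so neither was found there. Mitochondrial ribosomal protein genes had 3 members of 25 and 4 thresholded peaks. The 3 were mrpl-45 (summit at -331 bp), mrpl-15 (-612 bp) and mrpl-23 (-942 bp, with the snoRNA gene T08B2.13 closer, at -3 bp). With a window of 500 bp upstream to 100 bp downstream, 1 mitochondrial ribosomal protein gene and 1 translation factor gene had a member.

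Genes of energy metabolism and protein folding had shares above the 9.45% of genes with a pooled summit, from small lists with wide limits. Respiratory chain and ATP synthase genes had a member in 6 of 22 cases (27.3%, exact 95% limits 10.7% to 50.2%) and a thresholded peak in 7 (31.8%). cox-6A, a cytochrome c oxidase subunit gene, had 19.3 with the summit at -792 bp, and at -34 bp from the snRNA gene F54D8.7. ucr-2.2 and ucr-2.1, both for core proteins of complex III, had 19.2 and 16.7, on X. mev-1 had 17.9 and ranked 142 in replicate 1 and 3411 in replicate 2. Vacuolar ATPase genes, whose products acidify organelles, had a member in 3 of 12 cases and a thresholded peak in 4. The 3 were vha-3 (summit at -998 bp), unc-32 (-142 bp) and vha-16 (-199 bp). With a window of 500 bp upstream to 100 bp downstream, 4 respiratory chain and 2 vacuolar ATPase genes had a member. Chaperone genes had a member in 4 of 24 cases (16.7%) and a thresholded peak in 16 (66.7%). The 4 were cct-7, a subunit of the CCT chaperonin (17.8), sip-1, a small heat shock protein gene (16.3), dnj-11, a DnaJ gene (15.9), and enpl-1, for the endoplasmic reticulum chaperone GRP94 (14.7). Of the 8 chaperone genes with no thresholded peak, 4 had a member.

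Small RNA genes gave the largest counts of any list, and the lists of tRNA genes and of snRNA and snoRNA genes were also the longest by genes with a pooled summit. snRNA and snoRNA genes, which serve splicing and the modification of ribosomal RNA, had a member in 29 of 159 cases (18.2%, exact 95% limits 12.6% to 25.1%) and a thresholded peak in 51 (32.1%), against 9.45% and 12.5% of all genes with a pooled summit. The strongest were the snoRNA gene Y75B12B.12 (20.8, summit at -5 bp), the snRNA gene F32B5.9 (20.6, 114 bp), D1046.6 (20.5, 0 bp) and C02F5.15 (20.3, -139 bp). tRNA genes had a member in 29 of 182 cases (15.9%, 10.9% to 22.1%) and a thresholded peak in 23 (12.6%). No tRNA gene had both. Of all genes with a member only 1.86% did, so this absence does not set tRNA genes apart. A window can hold several tRNA genes, so these 29 genes exceed the 26 assigned ones above. MicroRNA genes had a member in 6 of 47 cases and a thresholded peak in 9. The 6 included lin-4, a regulator of the timing of larval development, with a signal value of 17.5 at -458 bp, and mir-53 with 16.2 at -244 bp. The nearest summit to the lin-4 region lay 985 bp away in replicate 1 and 135 bp away in replicate 2. Spliced leader genes had no member of 8 and 4 thresholded peaks.

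Genes of the nucleus had small counts. Over all genes with a pooled summit, 9.45% had a member and 12.5% a thresholded peak. Chromatin modifier genes had a member in 5 of 27 cases (18.5%) and a thresholded peak in 10 (37.04%). lin-13, a zinc finger gene of the synMuv B class, had 19.4, jmjd-4 17.9, lin-35, the worm retinoblastoma gene, 17.1, and mys-1, a MYST family acetyltransferase gene, 16.9. Histone genes had a member in 3 of 13 cases: the linker histone gene his-24 (19.8, summit at -34 bp) and the pair his-35 and his-41, which share a single region (14.6). Cell cycle genes had a member in 4 of 32 cases and a thresholded peak in 9. They were mcm-4 of the replicative helicase (17.9), the kinetochore genes knl-3 (17.6) and knl-1 (15.9), and mdf-2, the worm Mad2 checkpoint gene (16.9). Spliceosome and RNA binding genes had 4 members of 35 (lsm-7, snr-2, rsp-8 and hrpf-1) and 10 thresholded peaks, and RNA polymerase and Mediator genes had 2 of 20 (mdt-1.2 and mdt-22) and 5.

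The remaining lists had 3 members or fewer each. Proteasome and ubiquitin genes had a member in 3 of 29 cases, rpt-6 and pbs-7 of the proteasome and the ubiquitin-conjugating enzyme gene ubc-3, and a thresholded peak in 6. Vesicle traffic genes had 3 of 50, vps-60, vps-51 and sec-3, against 17 with a thresholded peak (34.0%), and vps-51 shares its region with lin-35. Nuclear hormone receptor genes had 3 of 45, nhr-255, nhr-32 and nhr-14, all on X. The single homeobox gene of 10 was unc-30, which specifies type D motor neurons (17.7, summit at 26 bp), and the other transcription factor genes were xbp-1 of the unfolded protein response (18.7, -9 bp), zip-4 (16.9) and hlh-11 (15.3), 3 of 21. Germline genes had 3 of 13, nos-3 (17.7), cgh-1 (16.2) and spe-48 (14.6). Genes of chemoreceptors (of 92), neuropeptides (of 10), neurons and synapses (of 19), muscle (of 9) and aminoacyl-tRNA synthetases (of 5) had no member. With a window of 2000 bp upstream to 500 bp downstream they had 3, 1, 4, 1 and 1 in the same order. In the main window, the exact upper 95% limit was 3.93% for chemoreceptors and 17.6% or more for the other lists without a member. Collagen genes had 1 of 20, col-176, and intestinal genes 1 of 22, clec-53, but 0 each with a window of 500 bp upstream to 100 bp downstream. In whole animals the tissue of a region cannot be told from the lists.

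**Figure D4:**
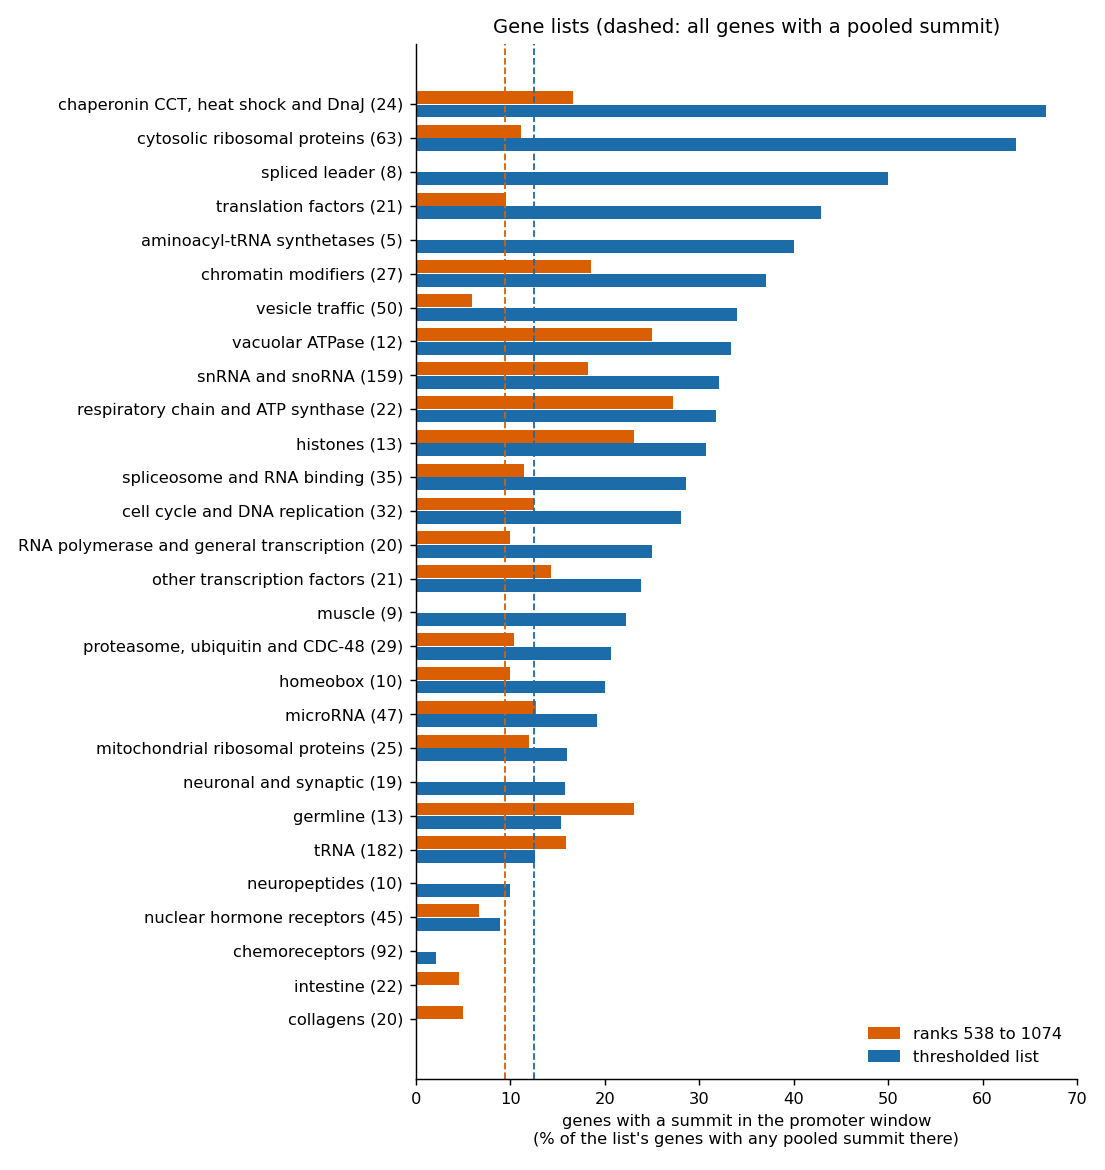
Percent of the genes of each list with a summit in the promoter window (x axis), of its genes with any pooled summit there (number in parentheses), for members in orange and thresholded peaks in blue; dashed lines give the shares over all 6257 genes, 9.45% and 12.5%. The blue bar is the longer one for 24 of the 28 lists; the orange bar is the longer one for tRNA genes (15.9% against 12.6%), germline genes (23.1% against 15.4%), collagens and intestinal genes.

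Fewer members than thresholded peaks had a summit in both replicate lists, and the rule that chose them used the same reads. A summit within 100 bp was present in the full replicate 1 list for 408 members (76.3%, exact 95% limits 72.4% to 79.8%) and in the replicate 2 list for 513 (95.9%, 93.8% to 97.4%), and 390 were in both (72.9%). For thresholded peaks these were 492 (91.6%), 531 (98.9%) and 486 (90.5%), and for lower regions 4442 (55.6%), 5740 (71.8%) and 2649 (33.2%). These counts depend on the distance: all 22 members not found in replicate 2, and 57 of the 127 not found in replicate 1, had a summit within 200 bp. Each replicate list has 30000 regions and holds background by construction. Within the upper part of each replicate list, down to the rank at which the members end in the pooled list, 138 members were found in replicate 1 (25.8%) and 306 in replicate 2 (57.2%), but only 32 in both (5.98%) and 123 in neither (22.99%). Of the thresholded peaks 343 were in both (63.9%) and 1 in neither.

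The median member ranked better in replicate 2, while the very top ranks held similar numbers in both lists. The members' median rank was 2052.5 in replicate 1 (408 found) and 933 in replicate 2 (513 found), and of the 390 in both lists 243 ranked better in replicate 2 and 147 in replicate 1. Within the length of the thresholded list, 80 members were found in replicate 1 (14.95%) and 71 in replicate 2 (13.3%), and the best member rank was 138 in replicate 1 and 229 in replicate 2. Members in the upper part of replicate 1 alone numbered 106, of which 64.2% were at promoters and 26.4% on X. Those of replicate 2 alone numbered 274, with 73.4% at promoters and 19.3% on X. By annotation, 76.0% of members at coding promoters were in both full lists, 71.4% of those at noncoding genes alone, 75.8% of exon, 71.6% of intergenic and 63.1% of intron members.

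**Figure D5:**
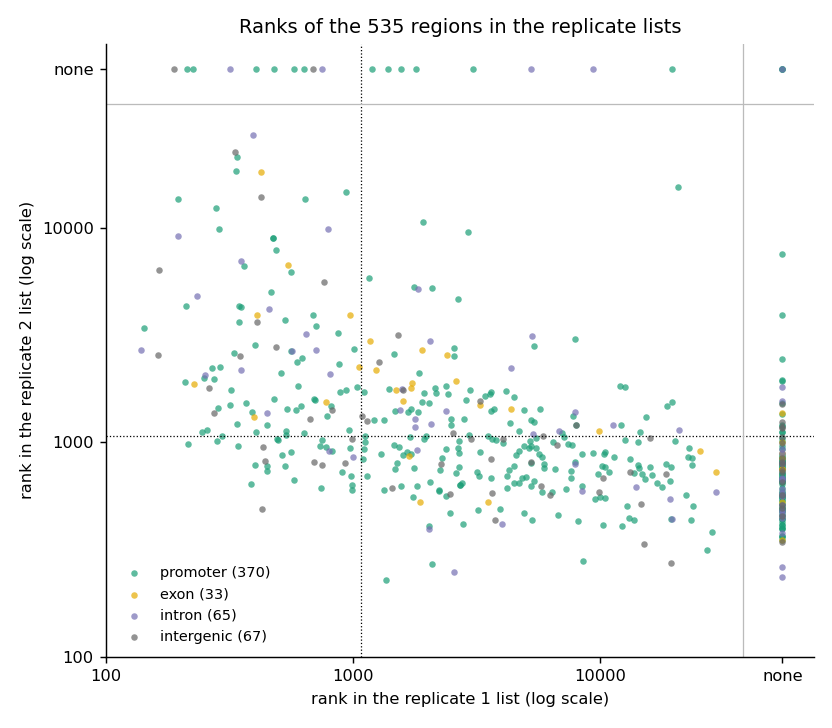
Rank of each member in the replicate 1 list (x axis, log scale) and in the replicate 2 list (y axis, log scale), coloured by annotation, with regions lacking a summit within 100 bp in a list placed at "none"; dotted lines mark the rank at which the members end in the pooled list. The lower left quadrant holds the 32 members in the upper part of both lists, and 123 members found in replicate 2 alone form the column at the right edge.

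Single regions differed widely in rank between the replicates. An intron region of hif-1, the hypoxia-inducible factor gene, had the best replicate 1 rank of any member, 138, but ranked 2706 in replicate 2. The promoter of jmjd-4 and mev-1 ranked 142 and 3411, and an intergenic region near bet-1, a bromodomain gene, ranked 188 in replicate 1, with the nearest replicate 2 summit 143 bp away at rank 824. In the other direction, the region of the ncRNA gene F40F9.15 ranked 229 in replicate 2 and 1358 in replicate 1. An intron region of spat-2 ranked 235 in replicate 2 and was not found in replicate 1, and one of lin-42, the worm period gene, ranked 248 in replicate 2 and 2578 in replicate 1. The lists state no common scale for their signal values, so only the ranks are set side by side.

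Regions near the top of both lists were few. The only member that ranked within the length of the thresholded list in both was an intergenic region at II:11751576-11751839, at -3097 bp from the nearest coding start, that of the G protein beta subunit gene gpb-1. It ranked 428 in replicate 1 and 487 in replicate 2, with a pooled signal value of 17.8 at rank 721. Next by the poorer of both ranks were the tRNA gene K08E7.t1, the snRNA gene F32B5.9 (575 and 666), ikke-1, a gene for a kinase related to IKK epsilon (448 and 735, summit at -793 bp), and the ncRNA gene F28C1.14 (745 and 610). Members with no summit within 100 bp in either full list were 4: the promoter of ubh-1, a ubiquitin hydrolase gene (17.7), the lin-4 region (17.5), the promoter of met-1, a histone H3 methyltransferase gene (15.9), and an intron of sma-9, a gene of BMP signalling (14.8). Each had a replicate 2 summit farther out, at 118, 135, 156 and 112 bp in the order named.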

How the data were processed

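By the README text deposited with the samples, the authors made alignments per replicate, regions with background per replicate and for pooled reads against a control, and a list of pooled regions past an irreproducible discovery rate (IDR) threshold. Aligner, peak caller, IDR threshold and handling of duplicates: not given in the sources used here. The control was not analysed here. The deposited signal value is a score with no stated scale, and the deposited significance is a −log10 q-value; a further p-value column held the placeholder -1. The lists hold no read counts, so the depth is unknown, and exact binomial intervals cover the counting of regions only.

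The 9070 pooled regions on ce11 were ranked by signal value. The thresholded list held ranks 1 to 537, the members ranks 538 to 1074 and the lower regions ranks from 1075; overlap meant any shared base. The next step below was ranks 1075 to 1611, and the upper part of a replicate list its strongest 1074 regions. Genes came from Ensembl release 115 (WBcel235, the ce11 assembly), with 1-based coordinates; all 26 tRNA genes assigned to a member were named from RefSeq. Support was a summit within 100 bp. Windows of 201 bp were searched on both strands, and motifs may overlap. Location shares were compared by Fisher's exact test (SciPy 1.17.1, Python 3.11.15, pandas 2.3.3), two-sided, with Benjamini-Hochberg adjustment over 6 tests and a threshold of 0.05. Only the exact test and its odds ratio were tried on simulated counts, not the ranking, annotation, summit matching or motif search.

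Both replicates formed 1 group. The members, gene lists and tests were chosen with earlier results of these data known. The text names genes of the strongest 20 members, those at the rank edges, up to 4 per gene list, and the members that ranked best in, or were not supported in, the replicate lists. Others are said to be chosen after their values were seen; so were the genes with both a member and a thresholded peak and the tRNA genes C06G1.t1, C04E7.t1 and K11H12.t1. Alternatives were other promoter windows, summit distances, sequence windows, backgrounds and lengths of the replicate lists, build ce10, the stronger or weaker members, the next step as the lower set, members kept despite overlap, and each replicate list alone. For the last, a replicate list was cut to its strongest 9070 regions, so its weaker regions end at that rank.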

Additional observations from a re-analysis of the deposited data

How the results depend on the processing

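Of the alternatives to the location tests, the direction or call changed in these. With the stronger 269 members, the promoter odds ratio against thresholded peaks was 0.737, the divergent one against lower regions 1.64 and the X one against thresholded peaks 1.11. With the weaker 266, the divergent one against lower regions was 1.44 and the X one against lower regions 0.997. Against the next step of ranks below the members alone the divergent one was 0.800. With members in both replicate lists only, chosen after seeing the data, the divergent one against lower regions was 1.40. The causes were not tested.

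With 1 replicate list alone, the promoter odds ratio ranged from 0.443 to 0.701 against stronger regions and from 1.39 to 3.30 against weaker ones, the divergent one from 0.483 to 0.632 and from 1.97 to 2.09, and the X one from 0.592 to 1.00 and from 0.809 to 1.09. The low end on X and the divergent 0.632, which missed the threshold, came from the replicate 1 list.

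Support in replicate 1, replicate 2 and both was 62.2%, 86.4% and 52.1% within 50 bp, and 86.9%, 100% and 86.9% within 200 bp. In the strongest regions of each list up to the length of the pooled list it was 63.4%, 92.9% and 57.6%, and in the upper part used in the report it was 25.8%, 57.2% and 5.98%. Of 76 alternative values for single gene lists and motifs, 33 moved. With the promoter window of 2000 bp upstream to 500 bp downstream, 3 chemoreceptor, 1 neuropeptide, 4 neuronal and synaptic, 1 muscle and 1 aminoacyl-tRNA synthetase genes had a member, against 0 each in the report. The window of 500 bp upstream to 100 bp downstream lowered other counts, among them mitochondrial ribosomal protein genes to 1 and translation factor genes to 1. Respiratory chain genes then had 4, vacuolar ATPase genes 2, and collagen and intestinal genes 0 each. Motif shares follow the length searched: against lower regions, the direction for members turned for CAGCTG within 50 bp of the summit (2.24% against 2.30%) and for TAATTA within 200 bp (16.8% against 16.7%), and for none of the other 8 motifs in either window. In all, 38 of the 49 tested alternatives to the location tests kept both direction and side of the threshold. No paired analysis was possible because both replicates form 1 group. Without read counts, no region's depth can be weighed.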
